A study of Homo sapiens with 4 samples.

Results

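The 10 Notch genes described here are 3 receptors (NOTCH1, NOTCH2 and NOTCH3), 4 ligands (JAG1, JAG2, DLL1 and DLL4) and 3 genes known as targets of the pathway (HES1, HEY1 and NRARP). They were chosen by name from the 58735 genes of the deposited tables, with earlier results of these data known. Each stood under a single gene identifier. All 10 had at least 10 reads in at least 1 library and were tested among 19895 genes. The RNA was labelled as coming from MHCC-97H, a human hepatocellular carcinoma line with high metastatic capacity, wild type in every library. The cells had 24 h with PBS or with 2 µg of migrasomes (Migs), which are vesicles left behind on the retraction fibres of migrating cells. By the labels, Normo-Migs were collected from MHCC-97H cells under normoxia and Hypo-Migs from the same line under hypoxia, and these labels were followed although the methods of the study name hypoxia for Normo-Migs in 1 place. CD147KO-Migs came from a CD147 knockout derivative kept under hypoxia, so the knockout lay in the donor cells and not in the sequenced cells. CD147 is a transmembrane glycoprotein carried on the Mig surface. As labelled, Migs and recipient cells shared 1 cell line, each condition was 1 library, and 1 batch number stands on all of them in the labels.

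Notch receptors are cut by furin on their way to the cell surface, and are bound there by Jagged or Delta-like ligands of a neighbouring cell. Binding lets ADAM10 and then gamma-secretase cut the receptor, and the freed intracellular domain enters the nucleus, where it joins RBPJ and a Mastermind protein and switches on genes such as the HES and HEY repressors and NRARP, which feeds back on the complex. In the liver, JAG1 and NOTCH2 are known for their part in forming bile ducts.

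For 8 of the 10 genes a promoter sequence was found in RefSeq (GRCh38.p14), and DLL1 and HEY1 were not matched. Both strands of the 300 bases from 250 before to 50 after the start were searched for GTGGGAA, the form preferred by RBPJ, and for the shorter TGGGAA that it contains. GTGGGAA stood in 6.25% of all 35116 promoters and TGGGAA in 24.0%. HES1 held GTGGGAA with its first base at -85 from the start and a further TGGGAA at -70, and neither string was in the windows of the other 7 genes. GC content of the 8 windows ran from 59.0% in HES1 to 79.7% in JAG2, against a median of 58.7% over all promoters. The 250 bases before the start are printed for HES1 and NRARP, as targets with and without a match, and for NOTCH3 and NOTCH1, as the receptor that differed most from the PBS library and a receptor that stayed close to it. Capitals mark the matches, and each sequence reads 5′ to 3′ on its gene's strand.
HES1, chr3:194135898-194136147, plus strand: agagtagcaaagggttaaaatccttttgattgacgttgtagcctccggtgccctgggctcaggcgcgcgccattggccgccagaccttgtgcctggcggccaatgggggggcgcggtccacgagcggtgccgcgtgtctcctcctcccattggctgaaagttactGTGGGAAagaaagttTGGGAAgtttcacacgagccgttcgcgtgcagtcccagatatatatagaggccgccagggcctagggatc
NRARP, chr9:137302272-137302521, minus strand: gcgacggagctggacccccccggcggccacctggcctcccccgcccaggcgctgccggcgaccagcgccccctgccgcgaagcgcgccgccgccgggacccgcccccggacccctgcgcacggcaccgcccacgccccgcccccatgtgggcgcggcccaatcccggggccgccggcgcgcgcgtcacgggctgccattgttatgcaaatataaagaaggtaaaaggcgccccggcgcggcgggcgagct
NOTCH3, chr19:15200996-15201245, minus strand: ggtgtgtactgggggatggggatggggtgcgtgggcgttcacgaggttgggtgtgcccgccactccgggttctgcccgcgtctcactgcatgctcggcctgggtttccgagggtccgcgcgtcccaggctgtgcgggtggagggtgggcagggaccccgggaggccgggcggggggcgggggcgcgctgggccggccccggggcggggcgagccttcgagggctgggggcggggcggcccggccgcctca
NOTCH1, chr9:136546049-136546298, minus strand: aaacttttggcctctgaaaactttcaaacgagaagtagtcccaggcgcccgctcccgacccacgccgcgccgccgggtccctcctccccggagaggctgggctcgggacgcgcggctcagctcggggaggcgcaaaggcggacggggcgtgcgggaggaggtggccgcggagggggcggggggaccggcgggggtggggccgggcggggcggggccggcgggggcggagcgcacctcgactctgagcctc

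Reads assigned to genes came to between 33882496 and 40285223 per library. The library labelled PBS stood apart. Its log2 levels correlated across genes with those of the 3 Mig libraries at r = 0.894 to 0.896, while the Mig libraries reached 0.984 to 0.985 among themselves (genes are not independent replicates). Mitochondrial genes took 2.69% of its reads against 5.0% to 5.16% in the Mig libraries. The comparisons of each Mig library with PBS share that library. Those between Mig libraries compare none of its reads, but the scaling and the low-count filter behind them used all 4 libraries. The label of a hepatocyte-derived cell was checked against 14 hepatocyte and hepatoma markers. ALB, AFP, APOB, TTR and GPC3 had 0 reads in all 4 libraries, where 0 reads allow up to 0.0885 CPM (reads scaled to 1000000 per library) in the shallowest library, and the summed level of the list, 4205 to 6597 CPM, came mostly from the keratins KRT8 and KRT18. FGB, a fibrinogen chain, had 0 reads with PBS and 561, 827 and 832 with Migs, and SERPINA1 had 25 against 2 to 10. These markers thus did not bear out the label in any of the 4 libraries, and the identity of the line was not tested. Whether the library labelled PBS and the Mig libraries came from the same line was not tested either. With 1 library each, the treatment and any other difference between the cultures cannot be told apart in the folds over PBS. With 1 library per condition there was no replicate error. Adjusted p-values are from edgeR's exact binomial test on the reads of 2 libraries (two-sided, Benjamini-Hochberg), so they compare libraries and not conditions, and all intervals are 95% and cover counting error only. A gene was called at an adjusted p of at most 0.05 together with a log2 fold change of at least 1 in size.

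All 3 Mig libraries held more NOTCH3, JAG1, DLL1, HEY1 and NRARP than the PBS library, from 2.39-fold for NRARP to 125.6-fold for NOTCH3, both in Hypo-Migs, with DLL1 known by a lower bound alone. These were 5 of the 10 Notch genes called higher in each comparison, and 0 were called lower. Among all genes tested, 16.5% were called higher in Normo-Migs, 17.5% in Hypo-Migs and 16.6% in CD147KO-Migs against PBS, and in both directions 27.2%, 28.3% and 27.4% were called. The median log2 fold change of the 10 genes was 0.943, 0.911 and 0.924 in that order, beside 0.0279, 0.0422 and 0.0311 over all genes tested. Because the 10 were chosen with earlier results known, these values do not test an excess over all genes.

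**Figure D1:**
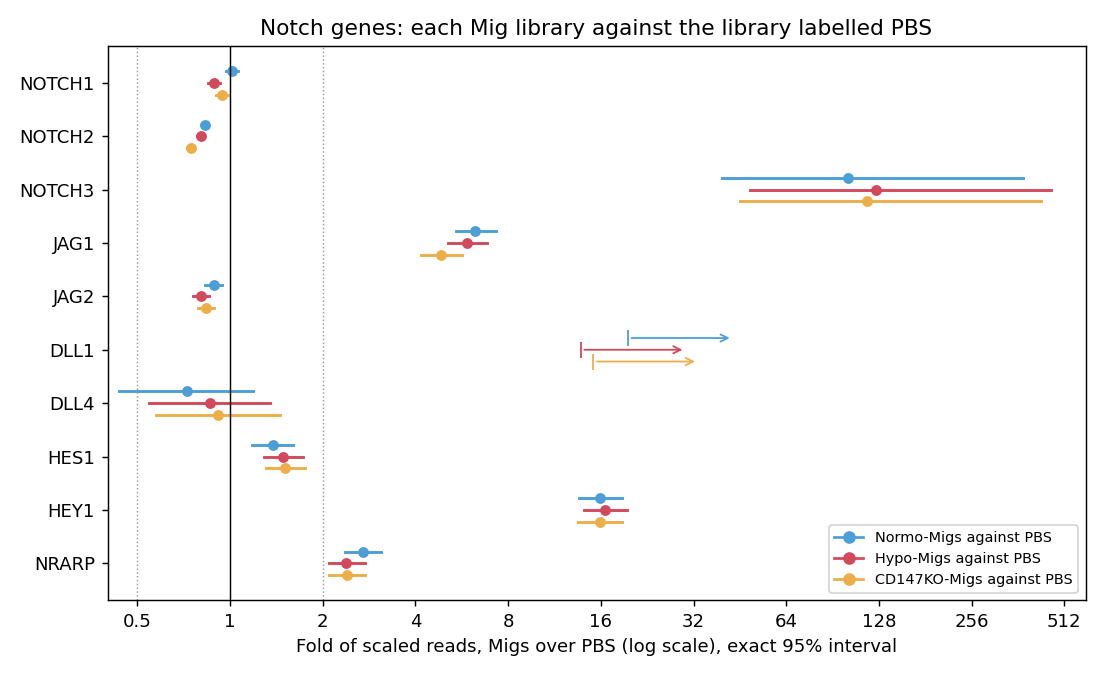
Fold of scaled reads of each Mig library over the library labelled PBS for the 10 Notch genes (log axis), with exact 95% intervals, dotted lines at 0.5 and 2, and arrows where 0 reads in PBS allow a lower bound alone. The 3 Mig libraries sit side by side for each gene, with NOTCH3 at 101.8 to 125.6, HEY1 at 15.9 to 16.5 and HES1 below 2.

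Of the receptors, NOTCH3 (ENSG00000074181, chromosome 19, 15159038 to 15200981, minus strand) is best known from vascular smooth muscle and pericytes. It had 4 reads after PBS, 402 after Normo-Migs, 584 after Hypo-Migs and 475 after CD147KO-Migs. The PBS library was thus close to the floor of 3 reads, and the Mig libraries all lay far above it. The fold over PBS was 101.8 (39.5 to 375.5) in Normo-Migs, 125.6 (48.8 to 462.3) in Hypo-Migs and 117.0 (45.4 to 431.3) in CD147KO-Migs. By size of rise it ranked 248, 222 and 234 among the 19895 genes.

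NOTCH1 (ENSG00000148400, chromosome 9, 136494433 to 136545786, minus strand), a receptor used in many tissues, had 3680 reads after PBS, 3682 after Normo-Migs, 3788 after Hypo-Migs and 3509 after CD147KO-Migs. Its fold over PBS was 1.01 (0.968 to 1.06), 0.885 (0.846 to 0.927) and 0.94 (0.897 to 0.985) in the same order, none of them called. NOTCH2 (ENSG00000134250, chromosome 1, 119911553 to 120069626, minus strand), the receptor tied to bile duct formation, had 13140, 10722, 12258 and 9933 reads and stood at 0.827, 0.802 and 0.745 of its PBS level after scaling. The antisense gene at the NOTCH1 locus had 3 to 15 reads. Both receptors thus stayed within 2-fold of PBS in every Mig library, NOTCH2 on the lower side in all 3. NOTCH2NLA, a near-identical copy of part of NOTCH2, was listed with 23 to 52 reads, and how reads shared by the pair were counted is not given in the sources used here.

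FPKM gives fragments per kilobase of gene and per 1000000 fragments, and so allows levels of different genes to be set side by side. The summed FPKM of the 3 receptors was 32.9 after PBS, 30.1 after Normo-Migs, 28.6 after Hypo-Migs and 27.7 after CD147KO-Migs. NOTCH2 held the highest FPKM of the 3 in every library, at 22.6, 18.6, 18.0 and 16.7, and NOTCH1 the next, at 10.3, 10.3, 9.02 and 9.56. NOTCH3 made up 0.0375% of the receptor FPKM with PBS and 4.13%, 5.38% and 5.16% in the Mig libraries.

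Among the ligands, JAG1 (ENSG00000101384, chromosome 20, 10637684 to 10673999, minus strand), whose loss causes bile duct paucity in Alagille syndrome, had 207 reads after PBS, 1279 after Normo-Migs, 1417 after Hypo-Migs and 1019 after CD147KO-Migs. The PBS library was the lowest, and CD147KO-Migs the lowest of the Mig libraries. Over PBS, JAG1 was 6.26-fold higher (5.4 to 7.29) after Normo-Migs, 5.89-fold (5.08 to 6.84) after Hypo-Migs and 4.85-fold (4.17 to 5.66) after CD147KO-Migs. The antisense gene annotated at its locus had 0 reads in all 4 libraries.

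JAG2 (ENSG00000184916, chromosome 14, 105140981 to 105168824, minus strand), the second Jagged ligand, had 2238 reads after PBS, 1954 after Normo-Migs, 2088 after Hypo-Migs and 1898 after CD147KO-Migs. Its fold over PBS was 0.885, 0.802 and 0.836, and it was not called in any of them. Per length, JAG2 stood above JAG1 in every library, and the ratio of their FPKM went from 15.7 with PBS to 2.22, 2.14 and 2.71 in the Mig libraries. JAG1 accordingly took 5.84% of the FPKM of the 4 ligands with PBS and 29.4%, 30.3% and 25.6% with Normo-Migs, Hypo-Migs and CD147KO-Migs.

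**Figure D2:**
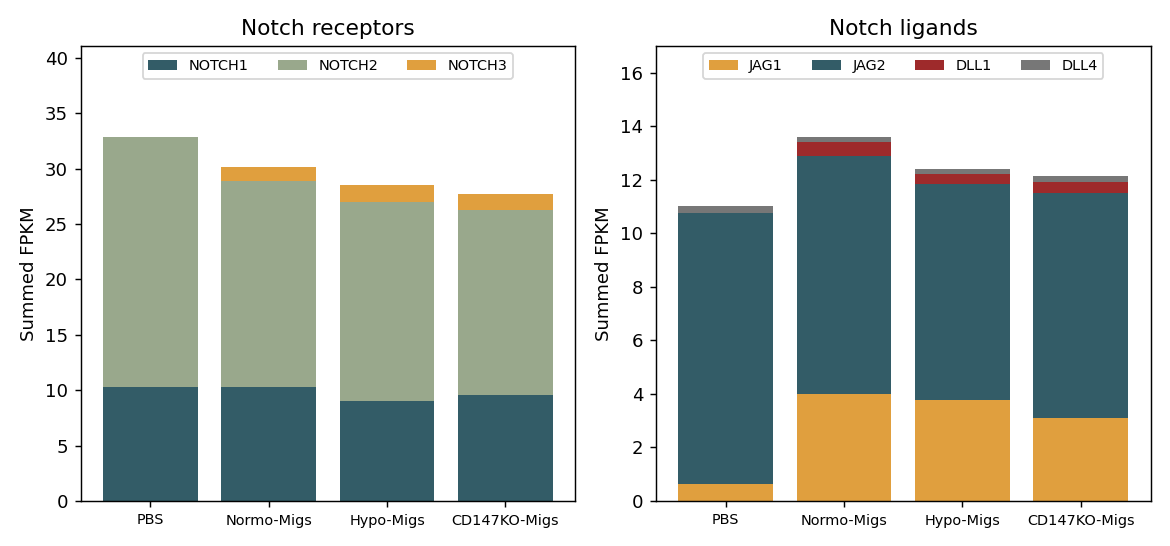
Summed FPKM of the 3 receptors (left) and the 4 ligands (right) in each library, stacked by gene from 0. The receptor sum runs from 27.7 to 32.9, with NOTCH3 visible in the Mig libraries alone, and JAG1 fills 5.84% of the ligand bar with PBS and 25.6% to 30.3% with Migs.

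DLL1 (ENSG00000198719, chromosome 6, 170282206 to 170306565, minus strand), a Delta-like ligand, had 0 reads after PBS, 58 after Normo-Migs, 48 after Hypo-Migs and 46 after CD147KO-Migs. Set against a floor of 3 reads in the PBS library, it was at least 19.6-fold, 13.8-fold and 15.1-fold higher. It overlaps FAM120B on the opposite strand, which had 970 reads with PBS and 1255 to 1478 in the Mig libraries, and since strand handling in the counting is not given in the sources used here, reads of the pair may not be told apart. DLL4 (ENSG00000128917, chromosome 15, 40929333 to 40939073, plus strand), the ligand of sprouting endothelium, had 42, 30, 42 and 39 reads, and its folds of 0.724 (0.437 to 1.18), 0.86 (0.547 to 1.35) and 0.915 (0.576 to 1.45) had intervals that held 1. Both Delta-like ligands were low per length, at no more than 0.523 FPKM in any library. The 8 endothelial markers summed to 3.6 CPM with PBS and 4.43 to 6.11 CPM with Migs. Of the 5 tested, 1 was called higher and 2 lower in Normo-Migs, and 2 higher and 1 lower in each of the others. Over all genes, 27.2% to 28.3% were called in both directions. Calls of TEK, ERG or CLDN5 would rest on few reads. TEK had 11 reads with PBS against 0, 3 and 0 with Normo-Migs, Hypo-Migs and CD147KO-Migs. In the same order, ERG had 0 against 2, 10 and 12, and CLDN5 had 4 against 3, 15 and 2. PECAM1 had 16 reads with PBS against 118 to 146, CDH5 had 84 against 30 to 72, and KDR was at 0 in all but the CD147KO-Migs library, which had 2.

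The target with the largest difference was HEY1 (ENSG00000164683, chromosome 8, 79764010 to 79767863, minus strand), a basic helix-loop-helix repressor. It had 160 reads after PBS, 2511 after Normo-Migs, 3075 after Hypo-Migs and 2577 after CD147KO-Migs. The fold over PBS was 15.9 (13.5 to 18.8), 16.5 (14.1 to 19.5) and 15.9 (13.5 to 18.7). The 3 intervals overlapped each other almost wholly, but all of them share the 160 reads of the PBS library. By size of rise HEY1 ranked 710, 725 and 728 of the genes tested. At 22.6 to 23.5 FPKM it was the highest of the 10 genes per length in each Mig library, and at 1.43 FPKM the sixth with PBS.

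NRARP (ENSG00000198435, chromosome 9, 137300482 to 137302251, minus strand), which encodes an ankyrin-repeat inhibitor of the Notch complex, had 296 reads after PBS, 790 after Normo-Migs, 822 after Hypo-Migs and 719 after CD147KO-Migs. It was higher than with PBS by 2.7-fold (2.36 to 3.1), 2.39-fold (2.09 to 2.74) and 2.39-fold (2.09 to 2.75). HES1 (ENSG00000114315, chromosome 3, 194136145 to 194138732, plus strand), the classical repressor induced by Notch, had 297, 403, 514 and 456 reads. Its folds of 1.38 (1.18 to 1.6), 1.49 (1.29 to 1.72) and 1.51 (1.31 to 1.76) lay above 1 in all 3 Mig libraries, but under the 2-fold needed for a call. Per length, HEY1 stood at 0.344 of HES1 with PBS and at 3.98, 3.82 and 3.61 times HES1 in the Mig libraries.

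The order of the 10 genes by FPKM was the same in the 3 Mig libraries, from HEY1 through NOTCH2, NRARP, NOTCH1, JAG2, HES1, JAG1, NOTCH3 and DLL1 down to DLL4. With PBS the order was NOTCH2, NOTCH1, JAG2, NRARP, HES1, HEY1, JAG1, DLL4, NOTCH3 and DLL1. Neighbours in these orders can lie close, as NOTCH1 and JAG2 do with PBS at 10.25 and 10.12 FPKM, and no replicate spread was at hand to part them.

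Markers of other cell types differed between the same libraries. The 8 fibroblast markers summed to 26.1 CPM with PBS and to 208.0, 220.6 and 222.5 CPM in the Mig libraries, and 5 of the 7 tested were called higher in each, PDGFRB (70 reads against 1747 to 2446) and THY1 (11 against 1681 to 2082) among them, while COL1A2 had 2 reads with PBS and 0 in the Mig libraries. The 9 biliary and progenitor markers went from 1746 CPM to between 551.8 and 595.3 CPM, a sum set by KRT7 (46770 reads against 16648 to 19191) and KRT19 (11287 against 32 to 75). Of the 8 tested, 4 were called higher and 2 lower in Normo-Migs, 3 and 2 in Hypo-Migs, and 4 and 3 in CD147KO-Migs. EPCAM had 578 reads against 1451 to 1834, and SPP1 had 0 against 408 to 463. Over all genes, 16.5% to 17.5% were called higher against PBS and 27.2% to 28.3% in both directions. The 6 leukocyte markers summed to 0.708 CPM with PBS and to 1.45 to 2.63 CPM with Migs, a sum set by CD14. It was the 1 marker tested, with 14 reads with PBS against 47, 78 and 86 with Normo-Migs, Hypo-Migs and CD147KO-Migs. CD68 went the other way, with 6 reads against 2, 1 and 0. The part of these genes, or of the library labelled PBS as such, in the differences of the Notch genes was not tested, and in bulk RNA a change in how many cells express a gene and a change in RNA per cell cannot be told apart.

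Each of the 10 genes lay within 2-fold in every pair of Mig libraries. Of the 10, 0 were called in each pair, where 4.91% of all genes were called for Hypo-Migs against Normo-Migs, 5.05% for Hypo-Migs against CD147KO-Migs and 4.90% for Normo-Migs against CD147KO-Migs. By adjusted p alone 3 of the 10 passed in each pair, beside 24.7%, 25.2% and 24.8% of all genes. Their log2 fold changes ran from -0.49 to 0.30, from -0.13 to 0.28 and from -0.32 to 0.37.

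**Figure D3:**
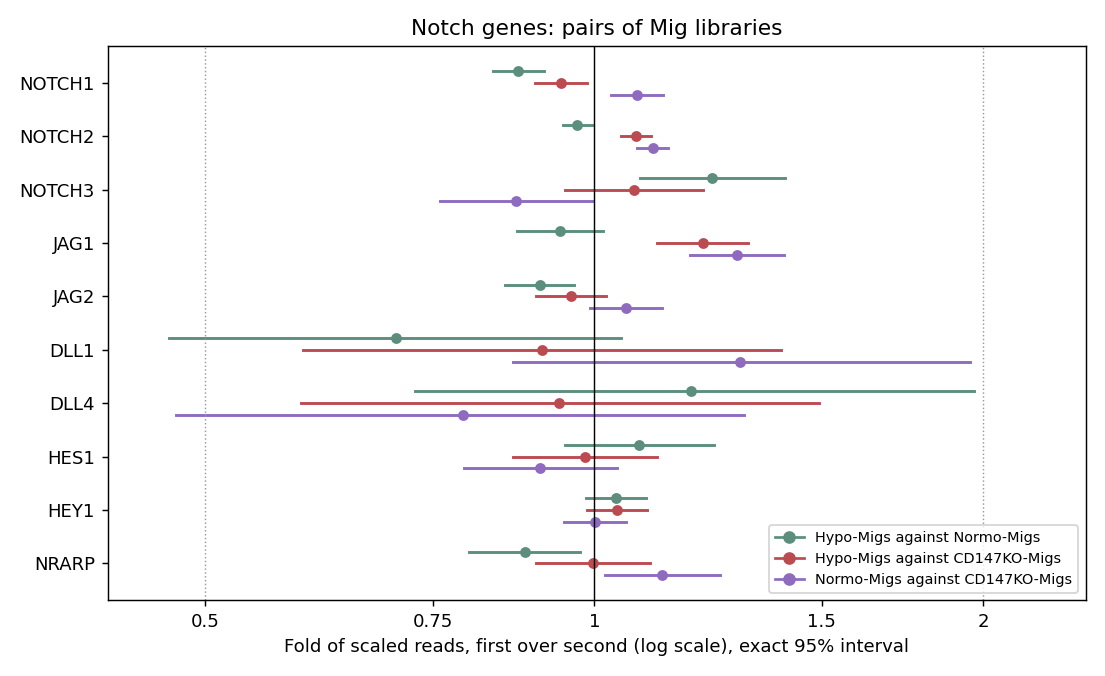
Fold of scaled reads between Mig libraries for the 10 Notch genes (log axis), with exact 95% intervals and dotted lines at 0.5 and 2. All points lie between the dotted lines, and JAG1 lies to the right of 1 in both comparisons against CD147KO-Migs, which share that library.

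In Hypo-Migs against Normo-Migs, which asks about the oxygen supply of the donor cells, NOTCH1 was at 0.873 (0.834 to 0.914, adjusted p = 2.26e-07 in edgeR's exact binomial test). NOTCH3 was at 1.23 (1.08 to 1.4, adjusted p = 0.00853 in the same exact test) and JAG2 at 0.907 (0.852 to 0.965, adjusted p = 0.0121 in the exact test). The targets lay close to 1, with HEY1 at 1.04 (0.986 to 1.1), HES1 at 1.08 (0.948 to 1.24) and NRARP at 0.883. NOTCH1, NOTCH3, JAG2 and NRARP belong to the 10% of genes richest in GC, at 62.9% to 67.3%, and the median log2 fold change of all genes in that class was -0.066 in this pair.

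In Hypo-Migs against CD147KO-Migs, which asks about CD147 in the donor cells, JAG1 was 1.21-fold higher (1.12 to 1.32, adjusted p = 5.61e-05 in edgeR's exact binomial test). NOTCH2 was 1.08-fold higher (1.05 to 1.11, adjusted p = 1.72e-06 in the exact test), and NOTCH1 was at 0.942 (0.899 to 0.987, adjusted p = 0.0449 in the exact test). The median log2 fold change of the GC class that holds NOTCH1 was -0.086 in this pair, beside -0.0862 for NOTCH1 itself. The targets again gave ratios near 1, at 1.04 (0.988 to 1.1) for HEY1, 0.984 (0.865 to 1.12) for HES1 and 0.998 (0.902 to 1.1) for NRARP. In Normo-Migs against CD147KO-Migs, JAG1 was 1.29-fold higher (1.19 to 1.4, adjusted p = 4.48e-08 in the exact test), NOTCH2 1.11-fold and NOTCH1 1.08-fold. Under an assumed coefficient of variation of 0.1 between libraries, the adjusted p of JAG1 became 0.981 in the Hypo-Migs pair and 0.692 in the Normo-Migs pair, so such differences could not be parted from a modest library-to-library spread.

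The rest of the pathway was taken from 68 listed genes outside the 10, of which 66 were tested. Against PBS, 12 were called higher and 2 lower in each Mig library, or 21.2% of the 66, and their median log2 fold change was -0.0243, 0.0321 and -0.0283. Over all genes that share was 27.2% to 28.3%. Of the 12 called higher, 7 came from the list of further HES, HEY and other target genes. Whether Notch acted on them in these cells was not tested.

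Of 15 genes listed as further HES, HEY and other targets, 7 were called higher and 0 lower against PBS in each Mig library. This was 46.7% of the list, where 16.5%, 17.5% and 16.6% of all genes were called higher. The list medians were 0.952, 0.878 and 0.88 on the log2 scale, beside 0.0279, 0.0422 and 0.0311 over all genes. The list was chosen with earlier results known, so an excess was not tested. HEYL, a HEY relative known downstream of NOTCH3, had 0 reads with PBS and 121, 136 and 122 with Normo-Migs, Hypo-Migs and CD147KO-Migs, which is at least 40.9-fold, 39.0-fold and 40.1-fold higher over the floor of 3 reads. SOX9, a biliary and progenitor factor that also stands in the biliary marker list, had 7 reads with PBS and 327, 441 and 391 with Migs (47.3-fold, 54.2-fold and 55.1-fold). Both genes were thus near or at the floor in the PBS library alone.

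HES2 had 87 reads against 360, 412 and 385, HES6 had 158 against 497, 616 and 554, and HEY2 had 29 against 100, 133 and 84. CDKN1A, a cell cycle inhibitor, and GATA3, outside the limit of 5 names per list, completed the 7. The family did not move as a block, since HES4 was at 0.765, 0.784 and 0.827 of PBS, HES5 had 17 to 28 reads, and HES7 was at 0.988, 0.896 and 0.972.

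**Figure D4:**
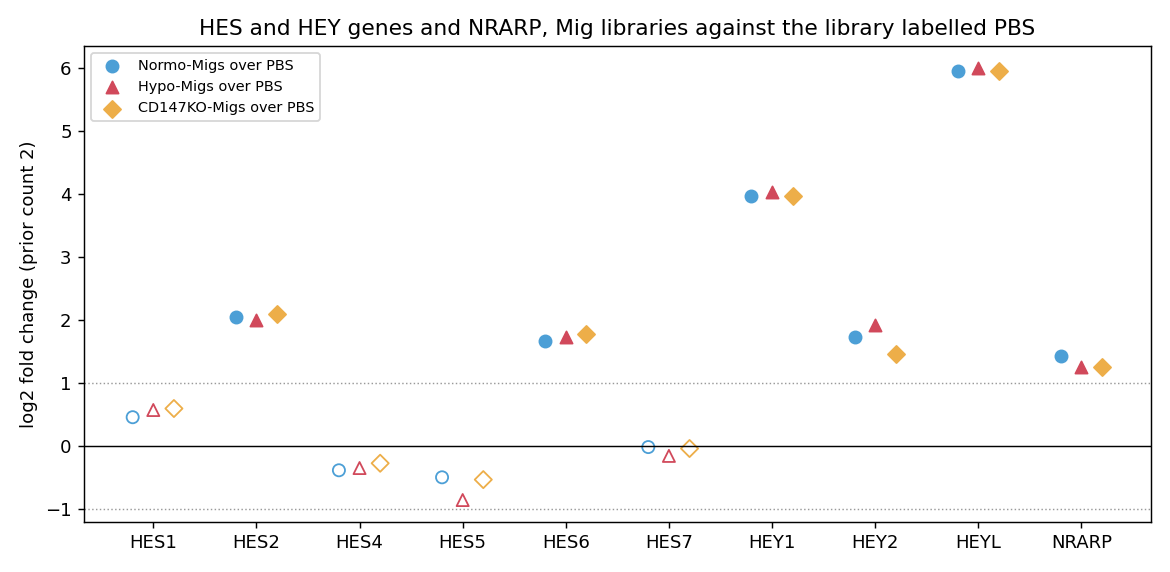
Log2 fold change over the library labelled PBS for the HES and HEY genes tested and NRARP in the 3 Mig libraries, with filled symbols for called genes and dotted lines at -1 and 1. HEYL has 0 reads with PBS, so its height depends on the prior count, while HES1, HES4, HES5 and HES7 stay between the dotted lines.

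Of 15 genes that glycosylate or cut the receptor, 1 was called higher and 1 lower, or 13.3%, beside 27.2% to 28.3% of all genes. Of these 15, 11, 11 and 12 had a log2 fold change below 0 for Normo-Migs, Hypo-Migs and CD147KO-Migs (medians -0.243, -0.249 and -0.329). FURIN, the protease of the first cut, had 6576 reads with PBS and 18332, 21950 and 20534 with Migs, or 2.82-fold, 2.87-fold and 3.08-fold more. ADAM10 had 5881 against 4860, 5756 and 4750 reads and was not called. The gene called lower was the Fringe glycosyltransferase MFNG, named after its values were seen, with 83 reads against 17, 8 and 19.

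In the nuclear complex, 2 of 19 genes were called higher and 0 lower, or 10.5%, beside 27.2% to 28.3% of all genes. MAML3, a Mastermind co-activator, had 33 reads with PBS and 543, 732 and 537 with Migs, a difference of between 16.04-fold and 19.07-fold. TLE2, a Groucho-type co-repressor, had 797 against 2341, 2903 and 2875 reads. RBPJ, the DNA-binding partner, was at 0.816, 0.891 and 0.819 of PBS and was not called.

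Among 14 tested genes of trafficking and ubiquitination, 14.3%, 7.14% and 7.14% were called against PBS, beside 27.2% to 28.3% of all genes. DTX3, a Deltex family ligase, was called higher with 2 reads against 85, 95 and 114, a ratio of 43.0 (11.6 to 361.3), 40.9 (11.0 to 342.2) and 56.2 (15.2 to 469.5). NUMBL, a Numb-like adaptor, had 1591 reads against 735, 1098 and 873 and was called lower with Normo-Migs alone, at 0.468 of PBS, beside 0.593 and 0.541. NUMBL was not called between Mig libraries. Of the other receptors and ligands, DLK2, an atypical ligand, had 112 reads against 225, 286 and 273 and was called higher in all 3 Mig libraries. NOTCH4, named after its values were seen, had 11, 7, 0 and 0 reads and was called lower with Hypo-Migs and with CD147KO-Migs. It was the only gene of the 66 called between Mig libraries, in both comparisons with Normo-Migs.

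By likeness of pattern over the 4 libraries, measured as the distance between centred log2 CPM values among 12186 protein-coding genes, the nearest to NOTCH2 were CEP192 (0.00543), MTFMT (0.0192) and TBK1 (0.0207). The nearest to JAG2 were SNRPE (0.0148), UNC50 (0.0167) and ATPAF1 (0.0209). The nearest to HEY1 were ENDOD1 (0.0684), DSE (0.0805) and ST3GAL5 (0.0962). The distance is not scaled to the size of a gene's differences, which was larger in HEY1 than in NOTCH2 and JAG2. It therefore does not rank these members by how alike their neighbours are. These distances rest on 4 libraries.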

How the data were processed

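Total RNA of the 4 cultures was sequenced after preparation with an mRNA library kit. Counts were deposited as whole reads per gene, and the deposited FPKM values were computed by the authors from the same libraries. The submitters' processing notes name CASAVA 1.8, fastp, HISAT2 2.0.5, featureCounts 1.5.0-p3 and hg38. Strand and multi-mapping settings are not given in the sources used here. Gene coordinates are those of the deposited count table, which match GENCODE 29 (GRCh38) for 58724 of 58735 genes.

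The counts were scaled by TMM (edgeR 4.0.16, R 4.3.3) over genes reaching 10 reads in any library. Pairs of libraries were tested by edgeR's exact binomial test with Benjamini-Hochberg adjustment over all 19895 genes, with a prior count of 2 for log2 fold changes. A quasi-likelihood test had no residual degrees of freedom. CPM values are unscaled, and FPKM was used for levels between genes. Each library was its own group, taken from the labels, and columns of other samples numbered 0. The members and lists were chosen with earlier results of these data known. All 10 members are named. From each pathway list, called genes averaging 50 reads or more are named, at most the 5 with the largest difference between Hypo-Migs and PBS. Alternatives covered scaling, low-count filters, prior counts, FPKM pseudocounts, assumed spread, protein-coding genes alone and DESeq2 1.42.0. Scripts were tested on simulated reads with 200 genes changed 4-fold, and all 200 were recovered. Without added spread, false calls numbered 4 for Hypo-Migs against Normo-Migs and 3 for Hypo-Migs against PBS. At a coefficient of variation of 0.1 they numbered 109 and 89.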

Additional observations from a re-analysis of the deposited data

How the results depend on the processing

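Of 12 alternatives, none turned the direction of a called difference. Against PBS, 5 of the 10 Notch genes were called in each comparison, and this became 3 in each with at least 10 reads in every library, where NOTCH3 and DLL1 were no longer tested. Under an assumed coefficient of variation of 0.4 it was 4, 4 and 3 for Normo-Migs, Hypo-Migs and CD147KO-Migs, where NRARP was lost in all 3 and JAG1 in the last. DLL1 was lost with log2(FPKM + 1). DESeq2 over the 4 libraries, with no replicates, called 0 of the 10 in every pair, with 4, 4 and 3 of them at an unadjusted p under 0.05 against PBS and 0 between Mig libraries.

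Of the other pathway genes, 14 were called against PBS in each comparison. With at least 10 reads in every library it was 10, 9 and 10 for Normo-Migs, Hypo-Migs and CD147KO-Migs. With log2(FPKM + 1) it was 7, 6 and 7, at a coefficient of variation of 0.4 it was 4, 5 and 4, and with DESeq2 it was 0 in all. The 1 call between Mig libraries, in each pair with Normo-Migs, became 0 with at least 10 reads in every library, with either FPKM pseudocount, with either coefficient of variation and with DESeq2, and also without a filter for Normo-Migs against CD147KO-Migs.

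Over all genes, calls against PBS numbered 5414 to 5639. They numbered 2680 to 2756 with at least 10 reads in every library, 1619 to 1674 with log2(FPKM + 1), 1535 to 1633 at a coefficient of variation of 0.4, 3590 to 3687 among protein-coding genes and 0 with DESeq2 (1246 to 1296 at an unadjusted p under 0.05). Between Mig libraries the 974 to 1004 calls became 217 to 238, 56 to 80, 0 to 2, 365 to 421 and 0 in the same order, and 228 to 281 at a coefficient of variation of 0.1. DESeq2 gave 1 to 7 at an unadjusted p under 0.05 there.

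No paired analysis was possible because each condition had 1 library, and for the same reason leaving out 1 library within a condition left no comparison. Depth limits DLL1, DLL4 and NOTCH3 with PBS, where few or 0 reads were counted.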
